A study of Homo sapiens with 9 samples.

Results

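IL11 and 9 further genes of the interleukin-6 (IL6) cytokine family were followed in LX-2 cells, 10 of the 20777 genes listed in the count table. They are the ligand genes IL11, IL6, LIF and CLCF1, the receptor genes IL11RA, IL6R, IL6ST, LIFR and OSMR, and the feedback inhibitor gene SOCS3. The genes were selected by symbol, and the family was chosen because IL11 stood out in the comparison of TGF-β with control cells. For the 10 genes, both comparisons with control are therefore given as a description, with the number of genes past the threshold but no p-value, and only TGF-β + uridine against TGF-β is tested, on TGF-β libraries that the selection also used. All 10 genes passed the filter on low counts, which left 13384 genes.

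Cytokines of this family signal through receptor complexes that hold the shared signalling subunit gp130, the product of IL6ST. LIF and CLCF1 pair gp130 with the LIF receptor, and oncostatin M pairs it with the LIF receptor or the oncostatin M receptor. CLCF1 can act through a specific receptor, CNTFR. IL6 and IL11 use IL6R and IL11RA with gp130. The complexes activate JAK kinases and STAT3, and STAT3 induces SOCS3, which shuts the receptors down. IL11 is a known TGF-β-induced product of fibroblasts and stellate cells.

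All 9 libraries were made from LX-2, an immortalised human stellate cell line from liver, of wild-type genotype per the labels. The control group (n = 3) has no treatment on its labels, the TGF-β group (n = 3) received TGF-β, and the TGF-β + uridine group (n = 3) received TGF-β and then medium with uridine. The labels of both treated groups give day 1 and name no dose. All libraries come from 1 line, and nothing in the labels says that replicates were separate cultures, so the p-values measure only the spread between these samples, which may be technical.

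Each library held 40539751 to 41467124 reads on genes. At this depth a count of 3, the upper limit that 0 reads allow, equals 0.0629 to 0.0889 CPM (reads scaled to the normalized library size), and this limit covers counting error only. The TGF-β target gene PMEPA1 was upregulated in the TGF-β group (log2 fold change 2.59, SE 0.09, edgeR adjusted p = 3.5e-06). Of the same check list, SMAD7 (log2 0.76, edgeR adjusted p = 0.0720) and SKIL (log2 0.51, adjusted p = 0.939), were not called. Of 11 listed stellate or myofibroblast markers, 10 reached 10 reads in a library, and VIM had 38916 to 74990 reads, but COL1A2, which encodes a chain of type I collagen, had at most 1 read in any library. Of 5 epithelial markers, EPCAM stayed at or under 5 reads while the keratin gene KRT7 had 65298 to 128005. The summed level of that list was 596 to 803 FPKM (level per length of the gene) in control, 1131 to 1179 in TGF-β and 833 to 974 in TGF-β + uridine libraries. The summed FPKM of 5 listed leukocyte markers, mostly CD68 and CSF1R, was 19.5 to 20.6, 30.6 to 32.7 and 27.1 to 30.5 in the same order, with at most 2 reads of LYZ and 1 of CD163. The epithelial sum was almost all KRT7 (group means 687, 1152 and 883 FPKM), which was not called against control in either treated group. Of the leukocyte markers, CSF1R was called upward against control in both treated groups and CD68 in neither. The summed stellate list moved the same way, at 683 to 778, 1151 to 1169 and 1047 to 1063 FPKM. Most of this sum was VIM (group means 501, 841 and 751 FPKM). For TGF-β against control, VIM, ACTA2, PDGFRB, TAGLN and LOX were called upward, and COL1A1, COL3A1, SPARC, TIMP1 and DES were not called. These summed levels moved with the treatments, and their part in the results below was not tested. The hepatocyte list stayed at or under 0.107 FPKM.

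Libraries also differed in base composition. The slope of log2 CPM on gene GC content, relative to the mean of the 9 libraries, was 5.65, −0.73 and −4.10 in control replicates 1 to 3. The TGF-β libraries had values of −0.32 to 0.54, and it was −0.50, 2.28 and −2.69 in the TGF-β + uridine libraries. TGF-β + uridine replicate 3 held 183 genes, of 10138 with at least 100 reads there, at more than 2 times the highest other library. IL6ST was one of them.

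The 10 genes lie at separate loci of GRCh38 (GENCODE release 29). IL11 (ENSG00000095752) spans chromosome 19 from 55364389 to 55370463 on the minus strand and shares no exon base with another gene. SOCS3 (ENSG00000184557) spans chromosome 17 from 78356778 to 78360077 on the minus strand, also without a shared exon base. Of the receptor genes, IL6ST (ENSG00000134352, 55935095 to 55994993, minus strand), LIFR (ENSG00000113594, 38474963 to 38608354, minus strand) and OSMR (ENSG00000145623, 38845858 to 38945596, plus strand) all lie on chromosome 5. IL6R (ENSG00000160712, plus strand) occupies 154405193 to 154469450 of chromosome 1. IL11RA (ENSG00000137070, plus strand) occupies 34650702 to 34661892 of chromosome 9, and 17.7% of its exon bases are shared, mainly with GALT and AL162231.3 on the same strand. IL6 (ENSG00000136244, plus strand) occupies 22725884 to 22732002 of chromosome 7, and 20.7% of its exon bases are shared with antisense genes. LIF (ENSG00000128342) lies on chromosome 22 from 30240447 to 30246851, and CLCF1 (ENSG00000175505) on chromosome 11 from 67364168 to 67374177, both on the minus strand. Whether reads were counted by strand is not given in the sources used here, so the counts of IL6 are uncertain where its exons lie antisense to another gene. The same holds for the smaller antisense shares of IL6ST (8.58%), LIF (6.73%), LIFR (5.30%) and OSMR (3.19%). CLCF1 shares 3.09% of its exon bases on the same strand. The exons of IL11RA are shared mainly on the same strand, and its counts are uncertain there with or without strand.

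IL11 was the gene behind the selection, and SOCS3 the one with lower levels in every treated library. A promoter window of each is therefore shown, chosen because these windows overlap no annotated exon. Both hold the 250 bases before a RefSeq transcript start on GRCh38.p14, chr19:55370464-55370713 and chr17:78360926-78361175, minus strand, written 5′ to 3′. Capitals mark matches to TGANTCA, the AP-1 element, to CAGAC, the SMAD element, and to TTCNNNGAA, the STAT element, each searched on both strands.
IL11: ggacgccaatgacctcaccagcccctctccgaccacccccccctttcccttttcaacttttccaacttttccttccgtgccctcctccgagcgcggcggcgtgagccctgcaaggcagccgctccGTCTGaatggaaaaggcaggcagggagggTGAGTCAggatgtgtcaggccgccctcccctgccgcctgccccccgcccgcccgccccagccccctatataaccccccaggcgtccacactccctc
SOCS3: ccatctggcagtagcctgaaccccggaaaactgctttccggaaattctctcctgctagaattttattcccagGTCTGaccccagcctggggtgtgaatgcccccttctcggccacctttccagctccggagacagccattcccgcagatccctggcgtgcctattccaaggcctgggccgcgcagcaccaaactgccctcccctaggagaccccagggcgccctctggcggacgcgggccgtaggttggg
The IL11 window held 1 AP-1 match, TGAGTCA, 96 to 90 bases before the start, and 1 SMAD match, on the opposite strand, 125 to 121 bases before it. In the SOCS3 window the letters searched gave 1 SMAD match, 178 to 174 bases before the start. That RefSeq start lies upstream of the GENCODE gene, whose minus-strand start is at 78360077. The only other SOCS3 window, 78359668 to 78359917, lies inside the gene and held no match. The bases just before 78360077 were therefore not searched. Over all 35116 RefSeq promoters of the same length, 6.57% held the AP-1 element, 38.0% the SMAD element and 6.57% the STAT element. Among 12 windows of 8 of the 10 genes, IL11 alone had an AP-1 match, and a STAT match was found in 2 windows of LIFR. A match describes letters and not a bound site.

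Compared per length, the 10 genes spanned more than 2 orders of magnitude. In control libraries SOCS3 was highest at 15.7 ± 0.54 FPKM (SD, n = 3), followed by OSMR at 9.09 ± 4.85, CLCF1 at 2.20 ± 0.21 and IL6R at 1.89 ± 0.74. IL6 (0.736 ± 0.063) and LIF (0.687 ± 0.078) came next, and their libraries overlapped. IL11RA had 0.392 ± 0.150 FPKM, IL6ST 0.245 ± 0.196, IL11 0.096 ± 0.084 and LIFR 0.056 ± 0.042, each overlapping its lower neighbour. In the TGF-β libraries IL11 stood at rank 4, with 2.51 ± 0.29 FPKM, overlapping CLCF1 (2.79 ± 0.23) and clear of IL6R (1.62 ± 0.17). In the TGF-β + uridine libraries it was again at rank 4, with 2.86 ± 0.73 FPKM, between CLCF1 (3.49 ± 0.54) and IL6R (2.07 ± 0.29). LIFR was the lowest of the 10 in every group, and SOCS3 and OSMR overlapped at the top of both treated groups.

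**Figure D1:**
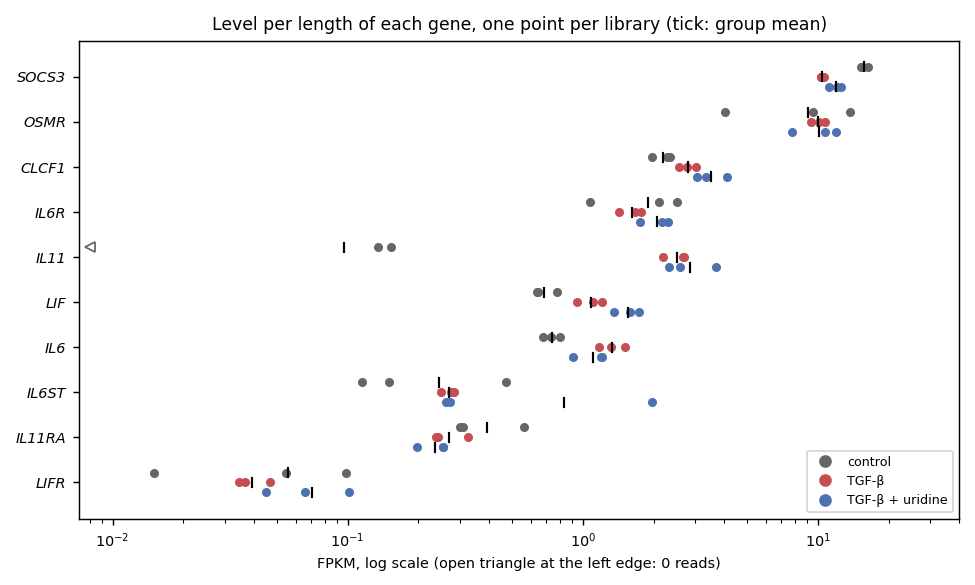
FPKM of each gene on a log axis, with 1 point per library (grey control, red TGF-β, blue TGF-β + uridine) and a tick at each group mean. IL11 moves from 0.096 FPKM in control to 2.51 and 2.86 FPKM in the treated groups, and the open triangle is control replicate 1, with 0 IL11 reads.

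IL11, which signals through IL11RA and gp130, was nearly silent in control cells. It had 0, 13 and 15 reads in control replicates 1 to 3, which is 0, 0.310 and 0.315 CPM, where 0 reads allow up to 0.0889 CPM. The TGF-β libraries had 213, 266 and 258 reads (5.36, 6.44 and 6.28 CPM). The TGF-β + uridine libraries had 254, 361 and 226 reads (5.91, 9.43 and 5.10 CPM). Every treated library lay above every control library, and the 2 treated groups overlapped. The log2 fold change against control was 4.77 (SE 0.68) for TGF-β and 4.95 (SE 0.69) for TGF-β + uridine. By size, IL11 ranked 13th and 9th of 13384 genes in these comparisons. The size of the fold depends on the scale, and on log2(FPKM + 1) it was 1.68 and 1.80, the lowest of the settings tried. In bulk RNA, more expressing cells and more RNA per cell cannot be told apart, here and for every gene below.

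IL6, the cytokine that names the family, had 85, 91 and 101 reads in control libraries (2.52, 2.17 and 2.12 CPM). It had 147, 168 and 189 reads in TGF-β libraries (3.70, 4.07 and 4.60 CPM) and 115, 151 and 151 in TGF-β + uridine libraries (2.67, 3.95 and 3.41 CPM). All 6 treated libraries lay above the 3 control libraries. The log2 difference from control was 0.86 (SE 0.22) in the TGF-β group and 0.56 (SE 0.22) in the TGF-β + uridine group.

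LIF, a ligand of LIFR and gp130, had 136, 110 and 113 reads in control libraries (4.03, 2.62 and 2.37 CPM). TGF-β libraries had 165, 195 and 209 reads (4.15, 4.72 and 5.09 CPM), and TGF-β + uridine libraries had 305, 238 and 277 (7.09, 6.22 and 6.26 CPM). The 3 groups did not overlap, with TGF-β + uridine highest. The log2 differences from control were 0.63 (SE 0.24) for TGF-β and 1.12 (SE 0.24) for TGF-β + uridine.

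CLCF1, a ligand that signals through LIFR and gp130, had 173, 146 and 178 reads in control libraries (5.12, 3.48 and 3.73 CPM). TGF-β libraries had 228, 211 and 193 reads (5.73, 5.11 and 4.70 CPM), overlapping the control libraries in CPM. TGF-β + uridine libraries had 253, 231 and 308 reads (5.88, 6.04 and 6.96 CPM), above all others. The log2 differences from control were 0.33 for TGF-β and 0.62 for TGF-β + uridine.

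Together, the 4 ligand transcripts summed to 3.72 ± 0.24 FPKM in control, 7.73 ± 0.34 in TGF-β and 9.02 ± 0.41 in TGF-β + uridine libraries (SD, n = 3). IL11 made up 2.59% ± 2.24 of that sum in control, 32.5% ± 2.33 in TGF-β and 31.7% ± 7.34 in TGF-β + uridine cells. CLCF1 was the leading ligand transcript in control cells, at 59.1% ± 2.35 of the sum. Its share was 36.3% ± 4.58 in TGF-β and 38.8% ± 5.81 in TGF-β + uridine cells, although its own level was not lower there. The share of IL6 was 19.8% ± 1.60, 17.3% ± 1.58 and 12.2% ± 1.37 in the same order, and that of LIF 18.5% ± 2.23, 14.0% ± 1.12 and 17.4% ± 2.83.

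**Figure D2:**
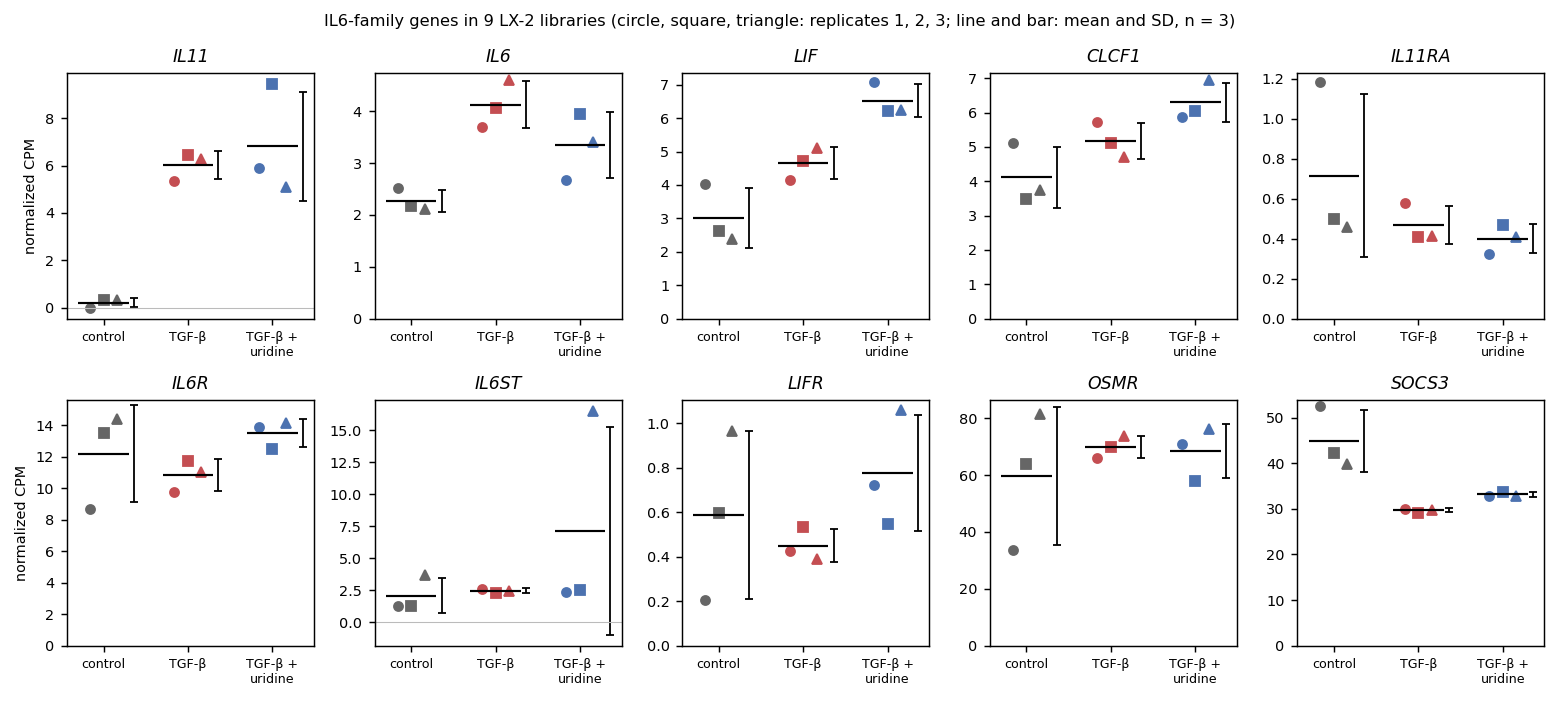
Normalized CPM of the 10 genes in each library, with the scale of each panel its own, replicates marked by shape, and the group mean (line) and SD (bar, n = 3). IL11 is near 0 in control and at 5.10 to 9.43 CPM in treated libraries, SOCS3 is lower in all 6 treated libraries, and 1 triangle at 16.5 CPM sets the IL6ST mean of the TGF-β + uridine group.

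The receptor genes had no such pattern in the edgeR fit reported here, in which 0 of 5 were called against control. This depended on the setting. OSMR was called in 2 of 21 alternative settings for each treatment against control. IL6ST was called in 2 of 18 for TGF-β + uridine against control. IL11RA, the specific receptor of IL11, was low throughout, with 40, 21 and 22 reads in control, 23, 17 and 17 in TGF-β and 14, 18 and 18 in TGF-β + uridine libraries. Only control replicate 1, at 1.18 CPM, stood above the remaining range of 0.326 to 0.578 CPM. In FPKM, the TGF-β + uridine libraries lay wholly below control, at 0.196 to 0.255 against 0.301 to 0.564. The TGF-β libraries overlapped control on both scales. The log2 differences from control were −0.60 (SE 0.44) and −0.82 (SE 0.44), and with so few reads smaller changes were not detectable. In each treated group, the IL11 level per length was above that of IL11RA in every library, whereas in control it was below.

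IL6ST, which encodes gp130, had 43, 55 and 176 reads in control, 105, 94 and 102 in TGF-β and 102, 98 and 730 in TGF-β + uridine libraries. The last value, 16.5 CPM in replicate 3, was 4.47 times that of the highest other library, and the remaining 8 libraries lay between 1.27 and 3.69 CPM. The log2 difference between TGF-β + uridine and TGF-β was 1.53 (SE 0.76), and −0.00042 without that library. The genes that stood out in replicate 3 had a median GC content of 38.5%, against 49.3% for all genes with as many reads there, and IL6ST has 36.6%.

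IL6R, the IL6 receptor, had 293, 567 and 687 reads in control (8.68, 13.5 and 14.4 CPM), 389, 486 and 452 in TGF-β (9.78, 11.8 and 11.0 CPM) and 598, 479 and 627 in TGF-β + uridine libraries (13.9, 12.5 and 14.2 CPM). The control libraries covered the range of both treated groups. LIFR, the LIF receptor, had 7 to 46 reads in control, 16 to 22 in TGF-β and 21 to 47 in TGF-β + uridine libraries, at most 1.06 CPM.

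OSMR, the oncostatin M receptor and the most abundant receptor transcript of the list, had 1139, 2677 and 3889 reads in control libraries (33.7, 63.7 and 81.6 CPM). TGF-β libraries had 2631, 2891 and 3028 reads (66.2, 70.0 and 73.8 CPM), and TGF-β + uridine libraries 3056, 2213 and 3379 (71.1, 57.8 and 76.3 CPM). Both treated groups lay within the span of the 3 control libraries. The log2 difference from control was 0.23 for TGF-β and 0.20 for TGF-β + uridine, and −0.06 and −0.11 without control replicate 1.

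In OSMR, IL6R and LIFR, with a GC content of 45.2%, 51.8% and 36.2%, the control libraries were ordered inversely to their GC slope. Control replicate 1, with the steepest slope, was lowest in all 3 genes, and control replicate 3 was highest. SOCS3, with a GC content of 60.0%, was highest in control replicate 1 (52.6 CPM) and lowest among control libraries in replicate 3 (39.8 CPM) on the normalized CPM scale only. In FPKM, which leaves out the TMM factor (0.820 in control replicate 1), SOCS3 was at 15.3, 15.5 and 16.3 in control replicates 1 to 3, whereas OSMR, IL6R and LIFR kept their order. With the slope as a covariate, the log2 differences between TGF-β and control were 0.29 for OSMR, −0.16 for IL6R, −0.20 for LIFR and −0.58 for SOCS3, against 0.23, −0.17, −0.40 and −0.60 without it.

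**Figure D3:**
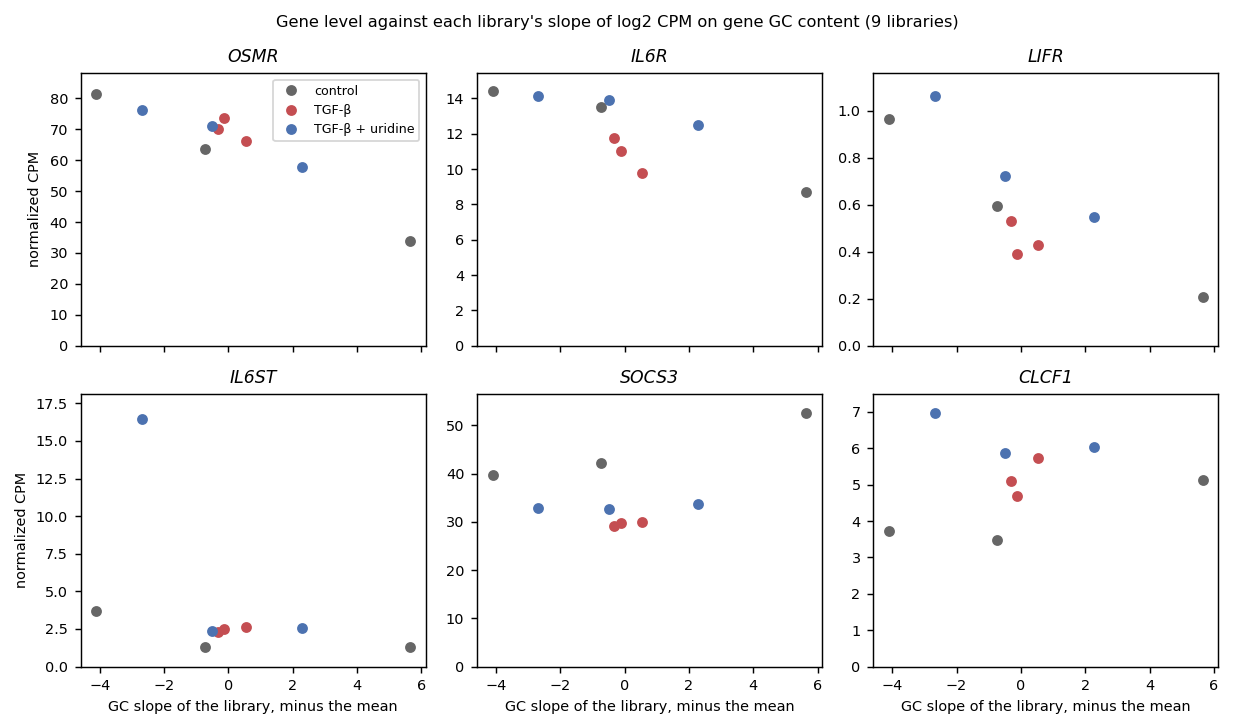
Normalized CPM of 6 genes (y axis) against the GC slope of each library relative to the mean of all 9 (x axis), with 1 point per library coloured by group. Control replicate 1, at 5.65 on the x axis, is lowest for OSMR, IL6R and LIFR and, in CPM but not in FPKM, highest for SOCS3, while the TGF-β libraries lie close together near 0.

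SOCS3, the feedback inhibitor, was the one gene of the 10 with lower levels in both treated groups than in every control library. It had 1777, 1777 and 1899 reads in control libraries (52.6, 42.3 and 39.8 CPM). TGF-β libraries had 1194, 1205 and 1225 reads (30.0, 29.2 and 29.8 CPM), and TGF-β + uridine libraries 1409, 1292 and 1457 (32.8, 33.8 and 32.9 CPM). The libraries of each treated group lay close together, and the 3 groups did not overlap. The log2 difference from control was −0.60 (SE 0.12) for TGF-β and −0.44 (SE 0.12) for TGF-β + uridine. IL11, IL6 and LIF were higher and SOCS3 was lower in the same libraries.

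Against control, 2 of the 10 genes passed an adjusted p of 0.05 for TGF-β, IL11 upward and SOCS3 downward, where 3.38% of all tested genes did. For TGF-β + uridine they were IL11 and LIF, both upward, where 5.33% of all genes did. Since the genes were chosen with these libraries known, nothing is read from these counts. They were also unstable: without control replicate 1 each comparison called 4 of the 10 genes, and without any 1 of several other libraries only 1. The median log2 difference of the 10 genes was 0.23 for TGF-β and 0.47 for TGF-β + uridine, against medians over all tested genes of −0.05 and −0.01. For the same reason nothing is read from these medians. They mix ligands (medians 0.75 and 0.87), receptors (−0.17 and 0.20) and SOCS3 (−0.60 and −0.44).

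**Figure D4:**
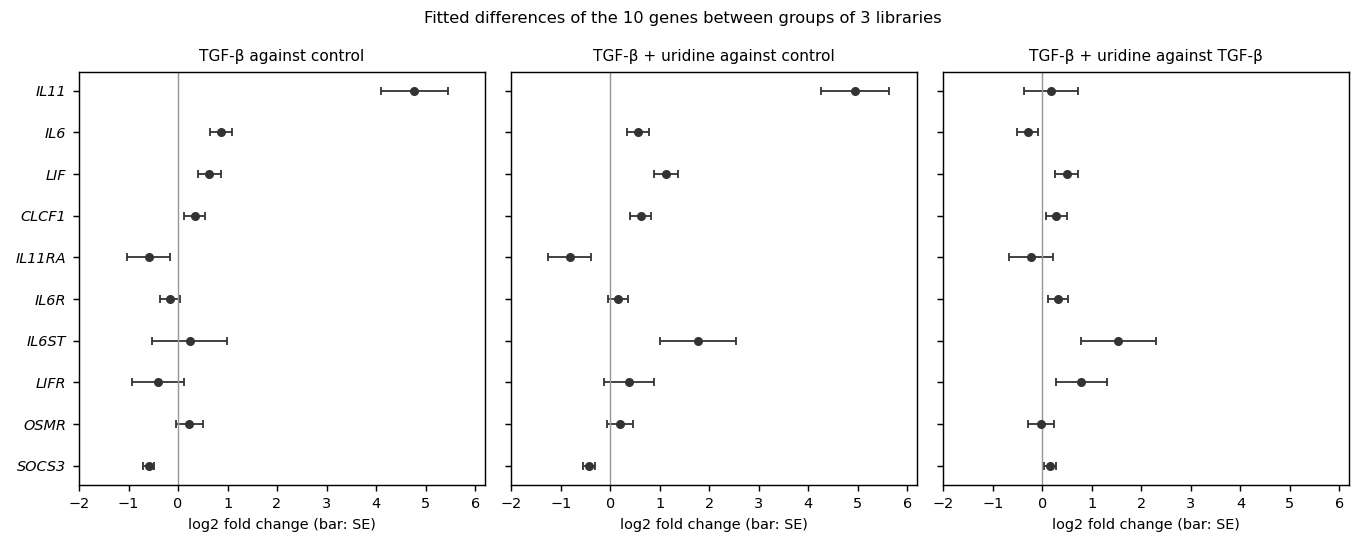
Fitted log2 fold changes of the 10 genes with their SE in the 3 comparisons (3 libraries per group). IL11 stands at 4.77 and 4.95 against control and at 0.18 in the comparison of TGF-β + uridine with TGF-β, and SOCS3 is below 0 in both comparisons with control.

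The comparison of TGF-β + uridine with TGF-β asks whether uridine altered the family in TGF-β-treated cells. None of the 10 genes was called by edgeR's quasi-likelihood test, where 0.0448% of all tested genes were called. At an unadjusted p under 0.05 it was 0 of 10, where 8.79% of all tested genes passed. DESeq2 also called 0 of 10. For IL11 the log2 difference was 0.18 (SE 0.55, 95% interval −1.07 to 1.42, edgeR adjusted p = 0.993), so that a halving or a doubling lay within the interval. LIF had a difference of 0.49 (95% interval −0.04 to 1.02, edgeR adjusted p = 0.620), higher in 3 of 3 libraries than in any TGF-β library. With the GC slope as a covariate it was 0.51 (edgeR adjusted p = 0.0398), the only one of 21 alternative settings that called it, with adjusted p up to 1.00 elsewhere. IL6 differed by −0.30 (95% interval −0.80 to 0.20, edgeR adjusted p = 0.821), CLCF1 by 0.28 (adjusted p = 0.825) and SOCS3 by 0.16 (95% interval −0.11 to 0.43, adjusted p = 0.830).

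Among the receptors, IL6R differed by 0.32 (edgeR adjusted p = 0.765), LIFR by 0.79 (adjusted p = 0.781), IL11RA by −0.22 (adjusted p = 0.991) and OSMR by −0.03 (95% interval −0.64 to 0.58, adjusted p = 0.999). IL6ST was given above, at an adjusted p of 0.636. In 5 of the 10 genes, LIF, CLCF1, IL6R, LIFR and SOCS3, all TGF-β + uridine libraries lay above all TGF-β libraries in normalized CPM, where 12.8% of all tested genes did and 12.8% lay wholly below. In FPKM, which uses library totals only, this held for LIF, CLCF1 and SOCS3, where 17.9% of all genes lay wholly above and 11.4% wholly below. None of the 10 lay wholly below on either scale.

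The rest of the pathway was read from a list of 41 genes, of which 38 were listed and 33 were tested. Against control, TGF-β upregulated 1 of the 33 and downregulated 1, where 3.38% of all tested genes were called in either direction. TGF-β + uridine upregulated 1 and downregulated 2, where 5.33% of all tested genes were called. CNTFR, the specific receptor through which CLCF1 can act, had 1 read in all 9 libraries together. CTF1, another ligand of LIFR, had 87 to 146 reads and was not called in any comparison. EBI3, a subunit of other cytokines of the wider family, had a log2 difference of 0.65 in TGF-β against control (edgeR adjusted p = 0.930), and IL27RA, a receptor that pairs with gp130, one of −0.50 (adjusted p = 0.0605). The protease genes ADAM17 and ADAM10, whose products shed receptors from the cell surface, had −0.19 and −0.12, with overlapping groups.

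None of the 8 tested kinase, STAT and adaptor genes was called in any of the 3 comparisons. STAT3, the main transducer of the family, had 124, 147 and 153 CPM in control libraries and 121 to 133 CPM in the 6 treated libraries. JAK1 ranged from 34.3 to 87.9 CPM in control and from 50.8 to 70.7 CPM in treated libraries, again lowest in control replicate 1. JAK2 had 2 to 29 reads. Of the 7 further inhibitor genes 0 were called, and CISH, a SOCS-family gene, was at 9.42, 9.25 and 7.52 CPM in TGF-β + uridine against 5.94, 5.28 and 6.24 CPM in TGF-β libraries (log2 0.59, edgeR adjusted p = 0.511). In TGF-β against control the inhibitor genes with the largest log2 differences were PTPN6 (−0.34), SOCS2 (0.25) and SOCS1 (0.25). The kinase, STAT and adaptor genes were JAK2 (−0.42), PTPN11 (−0.25) and STAT3 (−0.20). Each of these had overlapping groups in normalized CPM. In FPKM, PTPN6 lay wholly below control, at 1.46 to 1.91 against 1.96 to 2.34, and the others overlapped.

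Of 13 tested STAT3-induced genes, 2 were called in TGF-β against control, against 3.38% of all tested genes, and 3 in TGF-β + uridine against control, against 5.33%. JUNB, an AP-1 subunit gene that TGF-β also induces, was upregulated, from 74.8 to 113 CPM in control to 221 to 232 CPM in TGF-β libraries (log2 1.30, SE 0.16, edgeR adjusted p = 0.00203) and 172 to 215 CPM in TGF-β + uridine libraries (log2 1.08, adjusted p = 0.00502). CEBPD, a transcription factor gene of the acute-phase response, was downregulated by 0.71 on the log2 scale in both (edgeR adjusted p = 0.0168 and 0.0141). PIM1, a kinase gene, was downregulated in TGF-β + uridine against control (log2 −0.89, SE 0.15, edgeR adjusted p = 0.0109). The acute-phase genes LRG1 and SAA1 had log2 differences of −0.84 and −1.96 in TGF-β against control and were not called (edgeR adjusted p = 0.222 and 0.300), and SERPINA3 had 1.10 (adjusted p = 0.847). Reads were few, at 11 to 27 in control and 2 to 7 in TGF-β libraries for SAA1, and 1 to 19 and 11 to 23 for SERPINA3. BCL3 (0.51, edgeR adjusted p = 0.219) and MCL1 (0.53, adjusted p = 0.430) were not called either. In normalized CPM, 3 of the 13 genes, BCL3 and MCL1 among them, lay wholly above control and 6 wholly below.

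For TGF-β + uridine against TGF-β, 0 of the 33 pathway genes were called by edgeR, and DESeq2 called 2. At an unadjusted p under 0.05 it was 4 of 33, where 8.79% of all tested genes passed. The 4 were CCL2, PIM1, IL27RA and CISH. CCL2, a chemokine gene, had 209, 175 and 242 reads with uridine against 93, 86 and 111 without (log2 1.06, 95% interval 0.61 to 1.51, edgeR adjusted p = 0.164). PIM1 had 448, 370 and 449 reads against 641, 618 and 628 (log2 −0.62, edgeR adjusted p = 0.261). IL27RA differed by 0.30 (95% interval 0.03 to 0.57) and was not called. Of 21 alternative settings, CCL2 was called in 7 and PIM1 in 8, always in the same direction.

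**Figure D5:**
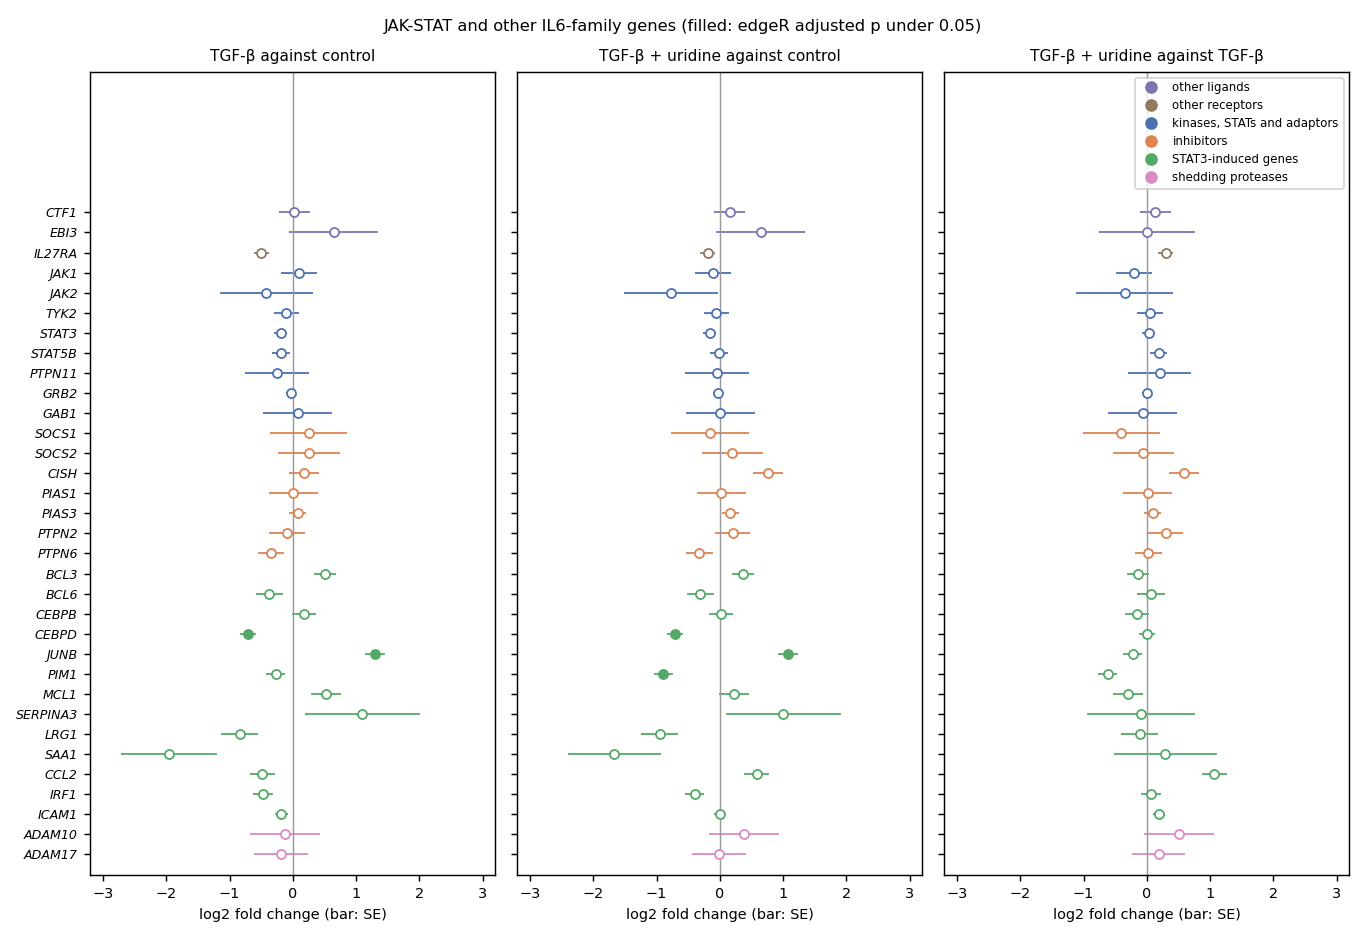
Log2 fold changes with SE of the 33 tested pathway genes in the 3 comparisons, coloured by sublist and filled where the edgeR adjusted p was under 0.05. JUNB is filled on the right and CEBPD on the left in both comparisons with control, PIM1 joins on the left with uridine, and the comparison of TGF-β + uridine with TGF-β has no filled point.

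Across the 9 libraries, the genes whose log2 CPM followed IL11 most closely, of 9841 compared, were GPN1 (Pearson r 0.985), SFRP1 (0.983), LTBP2 (0.982), TMEM268 (0.982) and CHST11 (0.981). LTBP2, which encodes a latent TGF-β binding protein, had 112, 221 and 260 reads in control libraries and 555 to 767 in treated libraries. SFRP1, a secreted Wnt antagonist gene, had 635 to 1482 reads in control and 1926 to 2454 in treated libraries. In GPN1, SFRP1, LTBP2, TMEM268 and CHST11, as in IL11, control replicate 1 was the lowest library. Genes closest to OSMR were PPP2R2A (r 0.994), CKAP5, NUP205, LAMC1 and CDK13, all with their lowest value in control replicate 1 and their highest in control replicate 3. The points share library, depth and base composition, and these correlations describe 9 libraries in 3 groups.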

How the data were processed

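Total RNA of LX-2 cells was measured by RNA-seq. The authors deposited counts of reads per gene symbol, not normalized, and FPKM values, which are the counts scaled by library total and by a fixed length of the gene. The submitters' processing notes name fastp, HISAT2, HTSeq, R 3.2.0 and GRCh38.p13, with no parameters. Groups came from the sample titles and treatment labels.

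The quasi-likelihood test of edgeR 4.0.16 (R 4.3.3; filterByExpr, TMM, glmQLFit, two-sided) was run on the counts in 1 model of the 3 groups over 9 libraries. P-values were adjusted by Benjamini-Hochberg over 13384 genes, and called means an adjusted p under 0.05. Normalized CPM uses TMM library sizes. TMM factors ranged from 0.820 to 1.16. Alternatives used DESeq2 1.42.0, limma 3.58.1 on log2 FPKM with a pseudocount of 1 or 0.1, other normalizations and filters, a replicate block, a covariate for the slope of log2 CPM on GC content (12319 genes, 92.0% of those tested), and leaving out each library. The model was also run on simulated data, in which all genes had the same spread and the libraries did not differ in GC slope. That simulation held no change between TGF-β + uridine and TGF-β. It therefore does not show how the model performs on these libraries.

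The 10 genes, the pathway and marker lists and the tests were chosen with earlier results of these data known. Named were all 10 genes, pathway genes that were called or among the 3 largest changes of their sublist in TGF-β against control, and the 5 genes most like IL11 and OSMR. Other pathway genes, such as those with an unadjusted p under 0.05 in TGF-β + uridine against TGF-β, JAK1, LRG1, BCL3 and MCL1, were added after values were seen. Gene positions come from GENCODE release 29 and promoters from RefSeq (GRCh38.p14). The table listed 20777 genes, and genes outside it, such as OSM, IL31, ALB and PTPRC, were not analysed here. Results for 3 further genes of the lists are not reported here, and the counts leave them out.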

Additional observations from a re-analysis of the deposited data

How the results depend on the processing

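IL11 stayed above control in all 20 alternative settings that fitted it, for each treatment. For TGF-β against control, 2 of the 10 family genes were called, and 1 without a filter on low counts, with at least 10 counts in every library, with only the 2 groups compared or with the replicate block. It was 5 with the GC slope covariate, with or without the block, 4 at an unadjusted p, and 1 to 4 with 1 library left out. For TGF-β + uridine against control (2 called), the count was 1 with at least 10 counts or the block, 0 with only the 2 groups compared, 7 with the covariate with or without the block, 4 in each of 3 limma settings, 6 at an unadjusted p, and 1 to 4 with 1 library left out. For TGF-β + uridine against TGF-β (0 called), it was 1 with the covariate.

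Of the pathway genes, 0 were called for TGF-β + uridine against TGF-β, but 2 by DESeq2, 2 with only the 2 groups compared, 8 with the covariate with or without the block, 3, 3 and 2 by limma, 4 at an unadjusted p, and 0 to 2 with 1 library left out (2 without control replicate 1). For TGF-β against control (2 called), it was 1 with only the 2 groups compared, 11 with the covariate with or without the block, 5, 5 and 4 by limma, 8 at an unadjusted p, and 1 to 7 with 1 library left out (7 without control replicate 1). For TGF-β + uridine against control (3 called), it was 6 by DESeq2, 1 with only the 2 groups compared, 13 with the covariate, 12 with covariate and block, 6 in 2 limma settings, 7 at an unadjusted p, and 1 to 8 with 1 library left out (8 without control replicate 1).

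The sign of TGF-β + uridine against TGF-β turned for IL11 (−0.13 to 0.35 with 1 library left out, negative without TGF-β + uridine replicate 2), IL6ST (−0.00042 to 1.95) and OSMR (−0.12 to 0.07, with 0.0736 without TGF-β + uridine replicate 2). The cause was not tested. Libraries with the same replicate number did not regularly deviate together (9 pairs, correlation −0.21 to 0.56, 2 over 0.1). Pairs with different numbers ranged from −0.66 to 0.63. With 3 libraries per group that also differ in GC slope, this check cannot exclude a paired design. IL11RA, IL6ST and LIFR fell under the FPKM filter of 2 limma settings. Depth limits IL11RA, LIFR and control IL11, each under 50 reads per library.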
